A study of Mus musculus with 93 samples.

Results

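The integrin subunits and laminin chains were followed across first and second heart field cells of mouse embryos and of spheroids grown from embryonic stem cells. Every symbol of the count table that names an integrin alpha subunit, an integrin beta subunit or a laminin alpha, beta or gamma chain was taken, which gave 37 of 24514 genes: 18 integrin alpha subunits, 8 integrin beta subunits, 5 laminin alpha chains, 3 laminin beta chains and 3 laminin gamma chains. GFP+ cells were sorted by a GFP reporter of Hcn4, a pacemaker channel gene that marks the first heart field. RFP+ cells were sorted by the Ai9 reporter, which Tbx1-Cre switches on, so that a cell which had once expressed Tbx1, a second heart field transcription factor, stayed red. Per the paper, the embryos and the stem cells carried Hcn4-GFP, Tbx1-Cre and Ai9 together, so both populations had the same alleles. In vivo there were 5 GFP+ and 4 RFP+ libraries of embryonic heart, and in vitro 38 GFP+ and 46 RFP+ libraries of spheroids that had formed for 48 h and were then induced for 40 h with growth factors. The paper sorted the spheroid cells later than the induction, once both reporters had appeared. The titles of the embryo libraries name day 8.5 of development and the protocol names day 7.75, and both are given here because the labels do not settle the stage. Each library held 10 sorted cells, and all spheroids came from embryonic stem cells with the same reporters. The labels do not say which wells shared an embryo or a differentiation, so p-values measure the spread between wells, which may in part be technical. By their well names, spheroid GFP+ and RFP+ wells lay in separate plate columns, so population and column cannot be told apart there. Embryo and spheroid wells of the same population also lay in separate columns, so source and column cannot be told apart either.

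Integrins are receptors of 1 alpha and 1 beta subunit that join the cell to the matrix around it. Laminins are trimers of 1 alpha, 1 beta and 1 gamma chain and form the network on which a basement membrane is built, the thin matrix sheet under epithelia and around muscle and vessels. In the early heart a basement membrane lies between the myocardium and the endocardium and under the epithelium-like progenitors of the second heart field, and integrin alpha 6 with beta 1 is a main laminin receptor of these tissues.

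Total counts were 712732 to 2525460 in embryo GFP+ libraries and 1246546 to 1479957 in embryo RFP+ libraries, and the former detected 6189 to 8302 genes against 10263 to 13052 in the latter. Spheroid GFP+ libraries held 828193 to 4371849 counts once well C9, with 6288 counts, was left out, and spheroid RFP+ libraries held 445071 to 5658882. In 7 pairs of RFP+ wells the counts differed by less than in any of the 1028 other pairs, and each pair was summed, which left 37 GFP+ and 39 RFP+ spheroid samples. The 12 cardiomyocyte markers summed to 18424 to 51541 CPM (counts per 1000000 counts) in embryo GFP+ and 1334 to 2363 CPM in embryo RFP+ libraries. In the spheroids they summed to only 32.8 to 1394 CPM (median 68.1) in GFP+ and 15.7 to 167 CPM (median 73.2) in RFP+ samples. Of the 5 markers tested there, 4 were called at an adjusted p under 0.1, all higher in GFP+ cells (80.0%, against 77.0% of all genes tested). In a pool of cells, fewer cells that express a gene and less RNA per cell cannot be told apart.

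Of the 37 members, 22 had reads in at least 1 embryo GFP+ library and 27 in at least 1 embryo RFP+ library, whereas all 37 had reads in some sample of each spheroid population. A single embryo GFP+ library held reads of 7 to 16 members (median 14) and a single embryo RFP+ library of 14 to 25 (median 21). Itga2, Itga2b, Itgam, Itgax, Itgb6, Lama3 and Lamb3 had no read in any of the 9 embryo libraries. In the spheroids a GFP+ sample held reads of 21 to 31 members and an RFP+ sample of 15 to 26.

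To compare genes with each other, levels were divided by the length of each gene's exons and are given as RPKM (CPM per kilobase of exon). Itgb1, the common partner of most laminin, collagen and fibronectin receptors, was the highest member in all 4 groups, with 104 RPKM in embryo GFP+, 52 in embryo RFP+, 38.9 in spheroid GFP+ and 34.3 in spheroid RFP+ cells. It made up 84.9% of all integrin beta RPKM in embryo RFP+ cells and 74.3% in spheroid RFP+ cells. Itgb5, which pairs with alpha V to bind vitronectin, came next among the beta subunits of RFP+ cells with 14.4% and 23.1%. Among the alpha subunits Itga6 led in the mean of GFP+ cells, with 61% of the alpha RPKM in embryos and 34.7% in spheroids. Itga9, a receptor subunit for tenascin and other ligands, led in the mean of RFP+ cells with 28.5% in embryos and 35% in spheroids. Single embryo libraries could differ: in GFP+ well C12 Itga9 had 43.7% and Itga6 22.4%, and in RFP+ well G12 Itga6 had 32.8% and Itga9 14.1%. Summed over the 18 alpha subunits, the level was 541 ± 187 CPM (SD, n = 5) in embryo GFP+, 262 ± 46.2 (n = 4) in embryo RFP+, 164 ± 32.2 (n = 37) in spheroid GFP+ and 149 ± 23.1 (n = 39) in spheroid RFP+ cells.

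**Figure D1:**
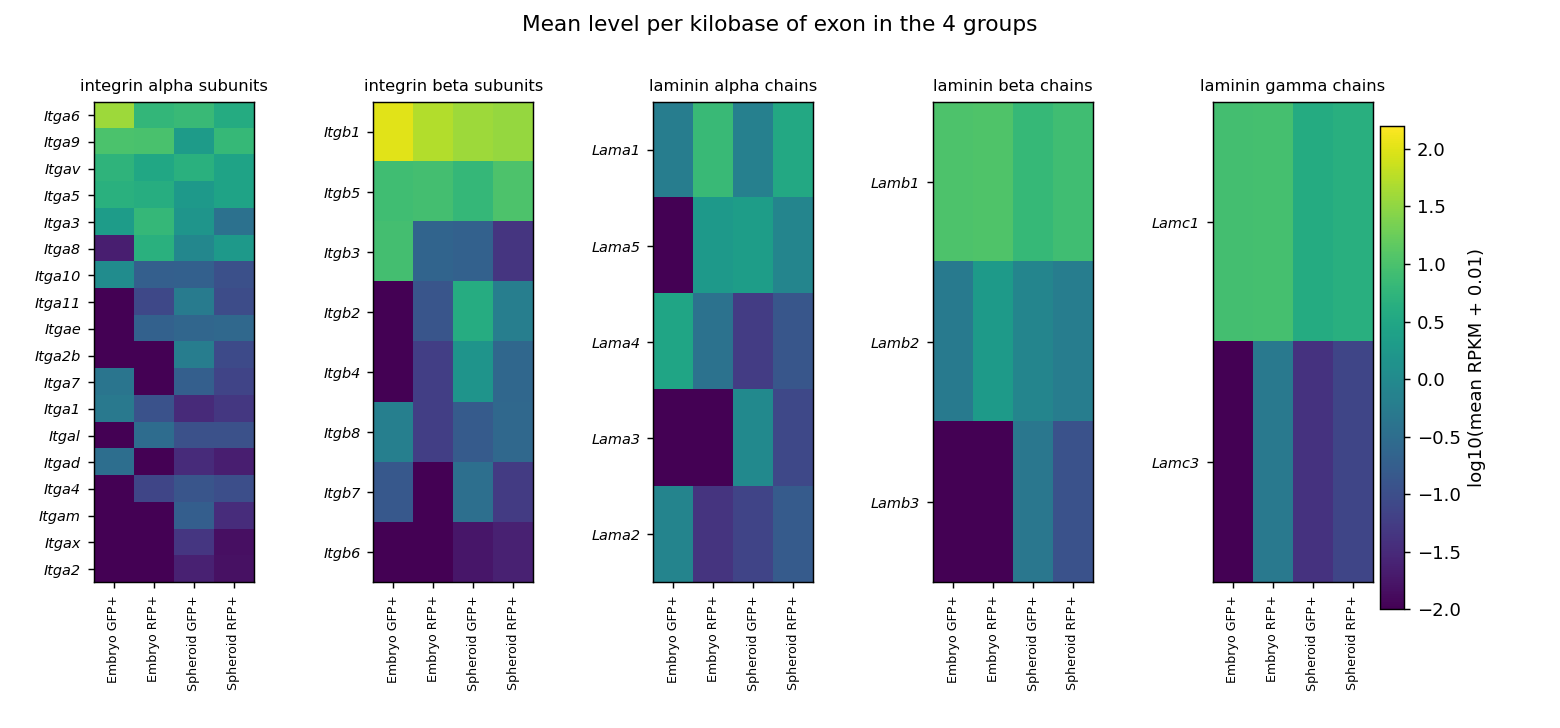
Mean level of 36 of the 37 members in the 4 groups, in RPKM on a log10 scale after adding 0.01, with 1 panel per family and the genes of a family ordered by their mean over the groups. Itgb1, Lamb1 and Lamc1 were high in every group, and the dark cells of the embryo GFP+ column include Itga8 at 0.0125 RPKM and Lama5 at 0.

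Every laminin trimer needs an alpha chain, and the alpha chain is the one that integrins bind. Lamb1 and Lamc1, the widely used beta and gamma chains of early embryonic laminins, supplied most of their families in all 4 groups: 83.5% to 95.4% of the beta chain RPKM and 73.4% to 95.2% of the gamma chain RPKM. The alpha chain, in contrast, differed by population. Lama1, the alpha chain of the first embryonic laminin, made up 75.7% of the alpha chain RPKM in embryo RFP+ cells and 75% in spheroid RFP+ cells. It was 16.9% in spheroid GFP+ cells, where Lama5 was 55.2% and Lama3 was 25.2%. In embryo GFP+ cells Lama1 was 13.8% and Lama4, a chain of vessel and muscle basement membranes, was 68.3%, but well B12 held most of the Lama4 reads (119 CPM), and without it the shares were 22.1% and 43%, with Lama2 at 34.9%. Without well C12 they were 7.26% for Lama1 and 83.9% for Lama4. Within single samples the share of Lama1 ran from 48.9% to 95% (median 74.4%) in the 39 spheroid RFP+ samples and from 0% to 45.8% (median 12.3%) in the 37 spheroid GFP+ samples, without overlap. In the embryo it was 65.6% to 87.3% in the 4 RFP+ libraries and 5.09% to 100% in the 4 GFP+ libraries that had any laminin alpha read, the 100% resting on 1 read in well A12. The share of Lama4 in these 4 GFP+ libraries ran from 0% to 94.9% (median 46.2%).

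**Figure D2:**
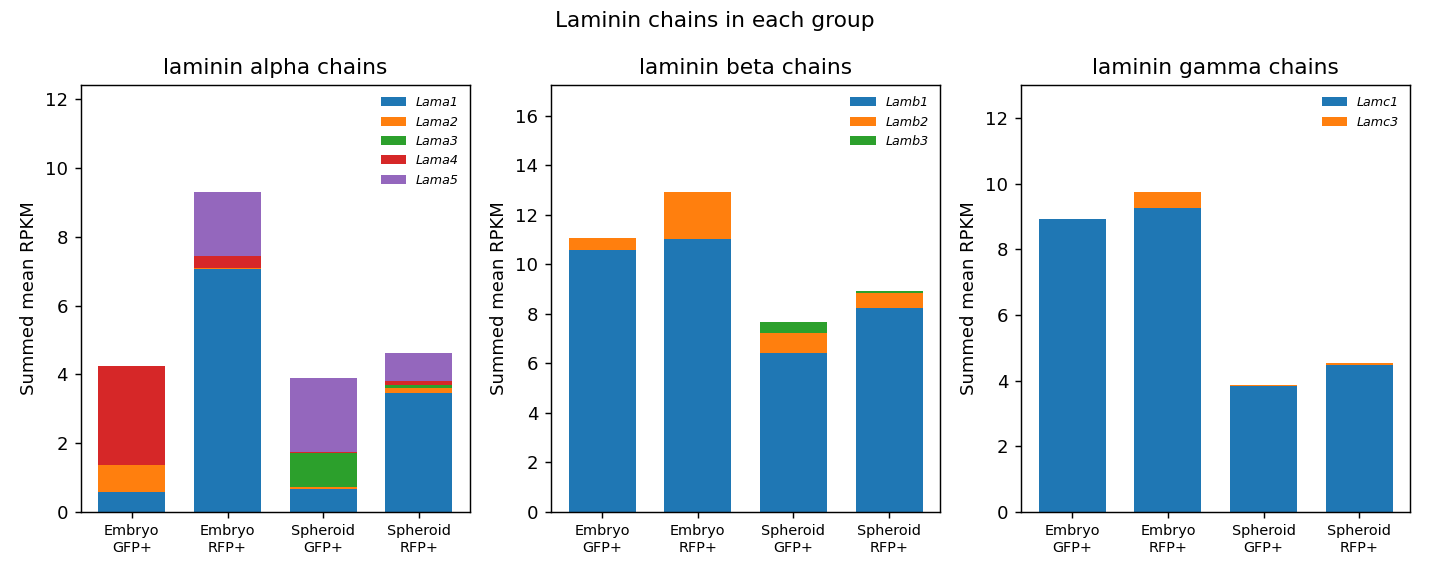
Mean RPKM of the laminin alpha, beta and gamma chains in each group, stacked by chain, so that the height of a bar is the summed mean level of the chains named in its panel. Lamb1 and Lamc1 filled most of their bars in all groups, while Lama1 filled 75.7% and 75% of the alpha bar in the embryo and spheroid RFP+ groups.

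The first comparison asked which members separated GFP+ from RFP+ cells in the embryo. Of the 37 members, 13 had enough reads to be tested and 3 were called at an adjusted p under 0.1, against 10.1% of the 8503 genes tested. Itga8 and Lama5 were higher in RFP+ cells, the direction of 6.21% of all genes tested, and Itga6 was higher in GFP+ cells, the direction of 3.88%. Lama5 had no read and Itga8 had 1 in the GFP+ libraries, so both entered the test only through the RFP+ libraries. That favours members that are high there, and the GFP+ libraries also detected fewer genes in general. The median log2 difference of RFP+ against GFP+ cells was -0.04 over the 13 members and 0.09 over all genes tested. CPM did not overlap between the populations for 4 of the 13 members, namely these 3 and Lama1, where 17.5% of all genes tested did not overlap.

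Itga6 encodes the alpha subunit of the laminin receptors alpha 6 beta 1 and alpha 6 beta 4 and lies on chromosome 2 (GRCm38, 71745616 to 71858416, plus strand). Its level was 294, 360, 166, 570 and 355 CPM in GFP+ wells A12, B12, C12, D12 and E12, and 40.8, 51.6, 85.2 and 43.3 CPM in RFP+ wells F12, G11, G12 and H11. All 5 GFP+ libraries were above all 4 RFP+ libraries. The level was 6.55-fold higher in GFP+ cells, with a log2 difference of -2.71 (SE 0.41, adjusted p = 0.00274).

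Itga8, the subunit that with beta 1 binds nephronectin and fibronectin, lies on the minus strand of chromosome 2 (GRCm38, 12106632 to 12301922). It had 19.7, 38.3, 14.3 and 63.1 CPM in RFP+ wells F12, G11, G12 and H11, and 1 read in all of the GFP+ libraries, at 0.462 CPM in well D12. With 188 counts against 1, the ratio per effective depth was 252 (95% exact interval 44.6 to 9997, for counting error only), and the fitted log2 difference was 7.33 (SE 1.72, adjusted p = 0.0119). The exons of Itga8 overlap E030013I19Rik on the other strand, and since the libraries do not mark strand, reads of the 2 genes in the shared stretch cannot be told apart.

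Lama5, the alpha chain of the laminins of mature epithelial and vessel basement membranes, also lies on the minus strand of chromosome 2 (GRCm38, 180176373 to 180225859). Its level was 29.1, 20.2, 9.28 and 26.2 CPM in the RFP+ wells, and no GFP+ well had a read. Against a floor of 3 counts per library, which was 2.53 CPM on average in the GFP+ libraries, the mean of Lama5 in RFP+ cells was at least 8.4-fold higher. Its fitted log2 difference was 7.88 (SE 1.49, adjusted p = 0.0125), a size that depends on how the fit treats a group at 0. Itga6, Itga8 and Lama5 were called under each of the 15 alternative settings tried, leaving out each embryo library in turn among them.

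The promoters of Itga8 and Lama5 are shown, since these 2 members were the ones called higher in embryo RFP+ cells. RefSeq promoters (GRCm38.p6) run from 250 bases before to 50 bases after the start of the transcript, and 23 of the 37 members had at least 1. Capitals mark matches to the GC box GGGCGG on either strand.
Itga8, chr2:12301895-12302194, minus strand: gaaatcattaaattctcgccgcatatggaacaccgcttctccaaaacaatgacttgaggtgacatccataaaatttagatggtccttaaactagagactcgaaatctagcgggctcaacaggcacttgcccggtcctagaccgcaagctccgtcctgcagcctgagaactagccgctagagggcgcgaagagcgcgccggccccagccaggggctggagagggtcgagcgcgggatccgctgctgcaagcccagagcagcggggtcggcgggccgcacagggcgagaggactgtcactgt
Lama5, chr2:180225810-180226109, minus strand: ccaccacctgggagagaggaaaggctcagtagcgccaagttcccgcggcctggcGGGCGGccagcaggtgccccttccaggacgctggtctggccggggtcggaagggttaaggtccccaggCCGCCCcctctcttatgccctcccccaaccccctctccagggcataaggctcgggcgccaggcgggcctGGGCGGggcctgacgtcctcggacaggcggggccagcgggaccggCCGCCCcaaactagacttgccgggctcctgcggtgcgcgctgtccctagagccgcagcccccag
The Lama5 promoter held 4 GC boxes and had a GC content of 72.7%, and the Itga8 promoter held none at a GC content of 59%. Of all 32851 promoters in the table, 35.7% held a GC box and the median GC content was 52.7%, and 12 of the 26 promoters of members (46.2%) held one. A CCAAT box (CCAAT) was in 37.4% of all promoters, a GATA site (AGATAA) in 11.2%, a forkhead site (TGTTTAC) in 3.65% and a T-box site (GGTGTGA) in 3.98%, searched on both strands, and none of these was in either sequence. A match or its absence describes these letters only.

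Lama1 was the member closest behind. It had 1.07, 5.11, 18.1, 4.15 and 0 CPM in the GFP+ wells A12 to E12 and 55.3, 49.5, 54 and 114 CPM in the RFP+ wells F12, G11, G12 and H11. The groups did not overlap, but the log2 difference of 3.48 (SE 1.34) had an adjusted p of 0.209. Itga3, a subunit of an epithelial laminin receptor, was read in a single GFP+ well, C12, at 60.3 CPM, and in all RFP+ wells at 32, 27.2, 34.6 and 48.2 CPM. Its log2 difference was 1.42 (SE 1.98, adjusted p = 0.883). Without GFP+ well C12 both genes were called, Lama1 at a log2 difference of 4.60 (adjusted p = 0.0594) and Itga3 at 8.70 (adjusted p = 0.0149). Lama1 was also called by DESeq2 (adjusted p = 0.0132) and by limma with a variance for each group (adjusted p = 0.022), and Itga3 by that limma fit (adjusted p = 0.00987), so these calls depend on the model as well as on well C12.

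The other 8 tested members were not called in the embryo. Itgb1 had 259, 352, 850, 124 and 541 CPM in the GFP+ wells and 183 to 240 CPM in the RFP+ wells, with a log2 difference of -1.10 (SE 0.47, adjusted p = 0.27). Itga9 was at 0 in GFP+ wells A12, B12 and E12 but at 276 and 119 CPM in C12 and D12, on both sides of the RFP+ range of 31.2 to 106 CPM. Lamb1 spanned 1.07 to 252 CPM and Lamc1 13.6 to 192 CPM over the GFP+ wells, against 82.3 to 143 CPM and 42.2 to 128 CPM in the RFP+ wells, and their log2 differences were -0.04 (SE 1.04) and -0.03 (SE 0.90). For each of these 4 genes the GFP+ range was the wider one. Lama4 was at 0 to 119 CPM in GFP+ and at 0 to 9.76 CPM in RFP+ wells, a log2 difference of -3.01 (SE 1.81, adjusted p = 0.585).

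Itgav, the alpha subunit of the vitronectin and fibronectin receptors, was at 8.94 to 134 CPM in GFP+ and at 24.8 to 43.9 CPM in RFP+ wells (log2 difference -0.79, SE 1.08). Itga5, which with beta 1 forms the main fibronectin receptor, was at 0, 17.9, 79.6, 0 and 16.7 CPM in the GFP+ wells and at 15.2 to 27.7 CPM in the RFP+ wells (-0.30, SE 1.67). Itgb5 was at 0 to 62.7 CPM in GFP+ and at 21.8 to 36.3 CPM in RFP+ wells (-0.01, SE 1.36). Itgb3, the beta subunit shared by a platelet receptor and a vitronectin receptor, reached 258 CPM in GFP+ well E12 and was at 1.28 CPM or below in the other GFP+ wells. It was among the 17 members with embryo reads that were too sparse for the fit. In an exact two-sided permutation test of each of these 17 between the populations, none had a p under 0.05. The lowest p was 0.0952 for Itgae. The smallest possible p was 0.0159 only without ties, and wells at 0 tie. A member read in 3 wells or fewer, Itgae included, could therefore not reach a p under 0.05. For such members the test cannot show whether the populations differed.

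**Figure D3:**
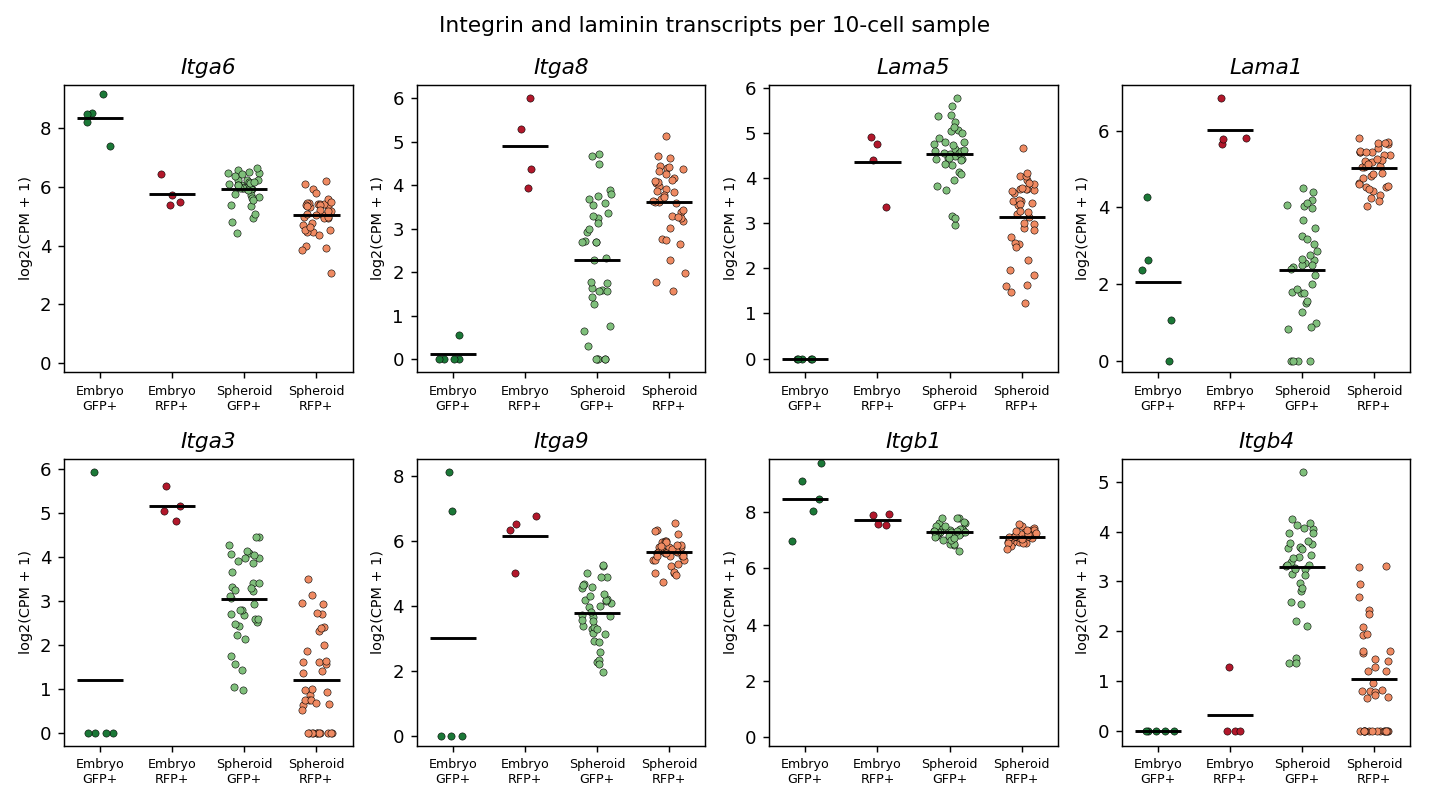
Level of 8 members in every sample of the 4 groups, as log2 of CPM plus 1, with 1 point per sample and a line at the mean of these log values. Itga6 in the 5 embryo GFP+ libraries (166 to 570 CPM) sat above the 4 embryo RFP+ libraries (40.8 to 85.2 CPM), Lama5 was at 0 in all embryo GFP+ libraries, and Itga3 and Itga9 split these libraries into wells at 0 and wells with reads.

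The same comparison in the spheroids had 37 and 39 samples, and most of the transcriptome differed: 77.0% of the 9933 genes tested were called, 38.0% towards RFP+ and 39.1% towards GFP+ cells. All 12 members tested were called, 7 towards RFP+ and 5 towards GFP+ cells, a share to be read against that background. Their median log2 difference was 0.28, and that of all genes tested was near 0. Among these 12 members, Lama1 and Itga9 had the largest differences towards RFP+ cells, and Itgb4 and Lama5 the largest towards GFP+ cells.

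Lama1 was at 15.4 to 55.2 CPM (median 34) in RFP+ and at 0 to 21.7 CPM (median 4.6) in GFP+ samples. It was 5.17-fold higher in RFP+ cells, with a log2 difference of 2.37 (SE 0.22, adjusted p = 2.4e-16). Itga9 was at 25.7 to 91.8 CPM (median 49.6) in RFP+ and at 2.94 to 37.5 CPM (median 13.1) in GFP+ samples, a 3.33-fold difference (log2 1.74, SE 0.15, adjusted p = 1.15e-18). The ranges of the populations overlapped from 15.4 to 21.7 CPM for Lama1 and from 25.7 to 37.5 CPM for Itga9.

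Itga8 was higher in RFP+ spheroid cells too, with medians of 12.3 and 5.42 CPM and a log2 difference of 0.98 (SE 0.28, adjusted p = 0.00128), though 32 of the 37 GFP+ samples had reads. Itgb5 was 1.71-fold higher in RFP+ cells (medians 37.9 and 20.3 CPM, log2 difference 0.77, SE 0.12) and Itga5 1.49-fold higher (medians 13.3 and 7.87 CPM, log2 difference 0.57, SE 0.19). The chains Lamb1 and Lamc1 differed little, at log2 differences of 0.35 (SE 0.09, adjusted p = 0.000198) and 0.21 (SE 0.11, adjusted p = 0.0789). The call for Lamc1 was lost under 4 of the 9 alternative settings tried.

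Towards GFP+ cells, Itgb4 had the largest difference. It encodes the beta subunit that pairs only with alpha 6 and anchors epithelia in hemidesmosomes. It was at 1.56 to 35.9 CPM (median 9.49) in all 37 GFP+ samples and at 0 to 8.92 CPM (median 0.746) in RFP+ samples, 25 of which had reads, a 5.32-fold difference (log2 -2.41, SE 0.30, adjusted p = 4.39e-12). Its partner Itga6 was at 20.6 to 99.2 CPM (median 61.8) in GFP+ and at 7.33 to 73.1 CPM (median 34.9) in RFP+ samples, 1.81-fold higher in GFP+ cells (log2 -0.86, SE 0.12, adjusted p = 1.4e-09), with broad overlap.

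Lama5 was at 6.8 to 54.1 CPM (median 22.7) in GFP+ and at 1.35 to 24.5 CPM (median 9.58) in RFP+ spheroid samples. It was 2.62-fold higher in GFP+ cells (log2 difference -1.39, SE 0.17, adjusted p = 5.29e-12), the direction opposite to the embryo. Itgav was 1.66-fold higher in GFP+ cells (medians 50.1 and 28 CPM, log2 difference -0.73, SE 0.11). Itgb1 differed by 1.14-fold (medians 157 and 138 CPM, log2 difference -0.18, SE 0.06, adjusted p = 0.00217), the smallest difference among the 12 members tested.

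The remaining 25 members were too low in the spheroids for the fit and were each compared by a two-sided permutation test of mean log2 CPM with 100000 resamples. Of these 25 tests, 13 gave a p under 0.05, without adjustment: 12 members were higher in GFP+ cells and 1, Lama2, was higher in RFP+ cells. Low genes in general leaned the same way: in the edgeR fit without a filter, 14 of the 25 were called, 2 towards RFP+ and 12 towards GFP+ cells, against 44.5% of the 11893 genes under the filter, 10.7% towards RFP+ and 33.9% towards GFP+ cells. Lama3 and Lamb3, laminin chains of epithelial basement membranes, were both higher in GFP+ cells. Lama3 was read in 34 GFP+ samples (median 9.35 CPM) and in 9 RFP+ samples (median 0). Lamb3 was lower, with medians of 2.46 CPM and 0, and both genes had a permutation p of 2.0e-05, the smallest that 100000 resamples can give.

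Itga3 was at a median of 7.57 CPM in GFP+ and of 0.893 CPM in RFP+ spheroid samples (permutation p = 2.0e-05). Itgb2, the beta subunit that leukocytes use, was read in 35 of 37 GFP+ samples at a median of 9.64 CPM and in 21 of 39 RFP+ samples at a median of 0.511 CPM (permutation p = 2.0e-05). None of its usual leukocyte partners was near that level: Itgal, Itgam, Itgax and Itgad had means of 0.101 to 0.856 CPM in the GFP+ samples. The list of 10 blood, leukocyte and platelet markers summed to a median of 3.7 CPM in GFP+ and 3.22 CPM in RFP+ samples. That sum hides opposite directions: by mean, Ptprc, Spi1, Runx1 and Gfi1b were higher in GFP+ and Tal1, Gata1, Pf4 and Hba-x in RFP+ samples. Spi1 was read in 15 GFP+ and 2 RFP+ samples, Ptprc in 7 and 1, and Tal1 in 5 and 15. Which cells held the Itgb2 reads was not tested.

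Markers of other cell types moved with these groups. In the spheroids the 12 endoderm markers summed to 274 to 710 CPM in GFP+ and to 75.6 to 290 CPM in RFP+ samples. Most of that sum was 3 genes that epithelia share, Epcam, Cdh1 and Cldn6, with means of 122, 94.6 and 161 CPM in GFP+ and 27.6, 34.2 and 55.4 CPM in RFP+ samples. Other genes of the list went the other way: the endoderm transcription factor Foxa2 was called higher in RFP+ cells (means 9.01 and 2.34 CPM, log2 difference 1.91, SE 0.40, adjusted p = 1.23e-05), and Sox17, Sox7 and Thbd had means of 2.09, 1.83 and 3.11 CPM in RFP+ and 1.32, 0.345 and 1.2 CPM in GFP+ samples. The 7 pluripotency markers summed to medians of 159 and 48.6 CPM in GFP+ and RFP+ samples. In the embryo the endoderm list summed to 0 to 109 CPM in GFP+ libraries, with 9 of the 12 genes at 0 in all of them, Epcam, Cdh1 and Cldn6 included, and to 128 to 862 CPM in RFP+ libraries. Lama5 was higher in the population with more Epcam, Cdh1 and Cldn6 in both sources, and so were Itgb4, Lama3, Lamb3 and Itga3 in the spheroids. These are only 3 of the 12 endoderm markers, and in the spheroids Foxa2, Sox17, Sox7 and Thbd had higher means in the other population. Lama1 was higher in RFP+ spheroid cells, where Epcam, Cdh1 and Cldn6 were lower. In the embryo Lama1 had means of 68.3 CPM in RFP+ and 5.68 CPM in GFP+ libraries, though it was not called. There Epcam, Cdh1 and Cldn6 were higher in RFP+ libraries too, with means of 64, 35.7 and 254 CPM. They spread widely over these libraries, at 0.709 to 173, 2.84 to 95.3 and 6.38 to 465 CPM, and were not in the embryo fit. The part of these markers in the differences was not tested. Of the embryo RFP+ libraries, well F12 had the highest endoderm sum, 862 CPM, and the highest Lama5 level, 29.1 CPM. Well G12 had the next highest endoderm sum, 539 CPM, and the lowest Lama5 level of these libraries, 9.28 CPM. Well F12 also held 1159 CPM of the blood, leukocyte and platelet markers, against 9.76, 0 and 22.7 CPM in G11, G12 and H11. Well H11 had the lowest endoderm sum, 128 CPM, with 26.2 CPM of Lama5 and 114 CPM of Lama1, the highest Lama1 level in the embryo. The 8 endothelial markers summed to 3.21 to 93.2 CPM in embryo GFP+ and to 224 to 569 CPM in embryo RFP+ libraries, the highest being well H11.

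To ask whether the spheroids showed the same difference between RFP+ and GFP+ cells as the embryo, the 2 log2 differences of each member were compared. Of the 11 members tested in both, 2 differed between embryo and spheroid at an adjusted p under 0.1, against 5.64% of the 8173 genes tested. Lama5 went in opposite directions, 7.88 in the embryo and -1.39 in the spheroids, a gap of 9.27 (SE 1.5, adjusted p = 0.0301). No embryo GFP+ library had a Lama5 read, so the size, SE and p of this gap depend on how the fit treats a group at 0. Against the floor of 3 counts per library, the embryo difference was at least 8.4-fold. Itga6 was higher in GFP+ cells in both but more so in the embryo, with -2.71 and -0.86, a gap of -1.85 (SE 0.43, adjusted p = 0.0752).

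For Itga8 the gap of 6.34 (SE 1.74) had an adjusted p of 0.126, and for the other 8 members the adjusted p was between 0.543 and 0.995. Lama1 differed in the same direction in both, by 3.48 and 2.37, with a gap of 1.11 (SE 1.35). The gaps of Itga5 and Itga9 had SEs of 1.68 and 1.67, and since the gap of Itga8 was not called either, gaps of several log2 units could go undetected with these libraries. The call for Itga6 was lost when RFP+ well F12, G11 or H11 was left out, and that for both genes when no filter on low counts was used.

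**Figure D4:**
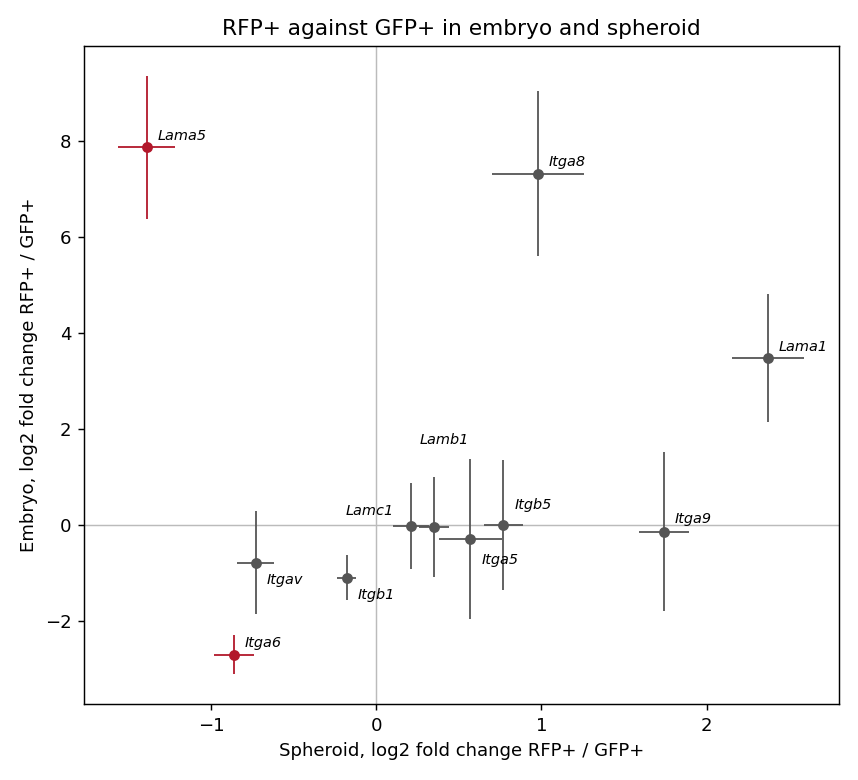
Log2 fold change of RFP+ over GFP+ cells in spheroids (horizontal axis) and in the embryo (vertical axis) for the 11 members tested in both, with bars of 1 SE and the 2 members whose changes differed between the sources in red. Lama5 sat at -1.39 and 7.88 at the upper left, the latter fitted with no read in the embryo GFP+ libraries. Lama1 and Itga8 were positive on both axes.

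Embryo and spheroid cells of the same population were then compared directly, and these 2 comparisons share their samples with those above. In RFP+ cells 15 members were tested and 11 were called, all higher in the embryo and none higher in the spheroid. Among all 11062 genes tested 42.1% were called, 19.8% higher in the embryo and 22.3% higher in the spheroid, and the median log2 difference was 1.02 over the members and -0.05 over all genes. The 4 RFP+ embryo libraries could bring a gene into the test on their own, which favours members that are high there. Some members under the filter ran the other way: Lama2, Itgb2, Itgb4 and Itgb8 had 2 or 3 reads each in the embryo RFP+ libraries, and the ratios of spheroid over embryo were 5.04 for Lama2 (95% exact interval 1.7 to 24.6, for counting error only), 5.56 for Itgb2 (1.51 to 46.3), 5.92 for Itgb4 (1.61 to 49.3) and 4.13 for Itgb8 (1.39 to 20.2). Of the members tested, Itga3 had the largest difference, at 27.2 to 48.2 CPM in the 4 embryo libraries and 0 to 10.2 CPM in the 39 spheroid samples, a 16.1-fold difference (log2 4.01, SE 0.75, adjusted p = 1.03e-07).

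Several laminin chains were among the members called higher in embryo RFP+ cells. Lama1 was 2.03-fold higher than in spheroid RFP+ cells (log2 1.02, SE 0.24, adjusted p = 0.000283), Lama5 2.27-fold (1.18, SE 0.43, adjusted p = 0.0146) and Lamc1 2.08-fold (1.06, SE 0.23, adjusted p = 6.19e-05). Lamb1 (log2 0.42) and Lamb2 (1.66) were called in the same direction. Lama3 and Lamb3 had no read in the embryo and means of 0.766 and 0.687 CPM in spheroid RFP+ samples, under the embryo floor of 2.23 CPM for 3 counts per library. Of the 8 integrins tested 5 were called, which besides Itga3 were Itga8 (log2 1.40), Itga6 (0.68), Itgb1 (0.60) and Itga9 (0.60). Itga5, Itgav, Itgb5 and Lama4 were not called, at log2 differences of -0.27 to 1.56. With a variance of its own for each group, limma called 6 of these 11: Itga3, Itga8, Itgb1, Lama1, Lama5 and Lamc1.

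In GFP+ cells 20 members were tested and 13 were called, 5 higher in the embryo and 8 higher in the spheroid. Of these 8, 7 had no read in any embryo GFP+ library and entered the test only through the spheroid samples. Of all 11953 genes tested 68.4% were called, 20.2% and 48.1% in these directions, and the median log2 difference of all genes was -0.65, which moved to -0.47 with other size factors, so differences are best read against that shift. Itga6 was 5.22-fold higher in the embryo (log2 2.39, SE 0.24, adjusted p = 1.02e-14): the lowest embryo library, at 166 CPM, was above the highest spheroid sample, at 99.2 CPM. Itgb1 was 2.52-fold higher (log2 1.33, SE 0.20, adjusted p = 9.4e-09). These 2 were the only members called when each group was given its own variance, a fit that took the wide spread of the embryo GFP+ wells into account and called 2413 genes in all.

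Itga9, Itga5 and Lamc1 were also called higher in embryo GFP+ cells, at log2 differences of 2.27 (SE 0.64), 1.25 (SE 0.60) and 1.11 (SE 0.34). Itga9 and Itga5 rested on few wells, and without well C12 the log2 difference of Itga5 was -0.10 (adjusted p = 0.894). Lama5, Itgb2, Lama3, Itgb4, Itga2b, Lamb3 and Itga11 were at 0 in all embryo GFP+ libraries and were called higher in the spheroid. Against the floor of 3 counts per library, Lama5 was at least 9.7-fold higher in spheroid GFP+ cells, Itgb2 at least 4.78-fold, Lama3 at least 4.18-fold and Itgb4 at least 4.1-fold, and Itga2b, Lamb3 and Itga11 at least 1.1-fold to 1.27-fold. Itga8 was read in 32 of 37 spheroid GFP+ samples and had 1 read in the embryo ones, a ratio of 47.5 (95% exact interval 8.48 to 1879).

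**Figure D5:**
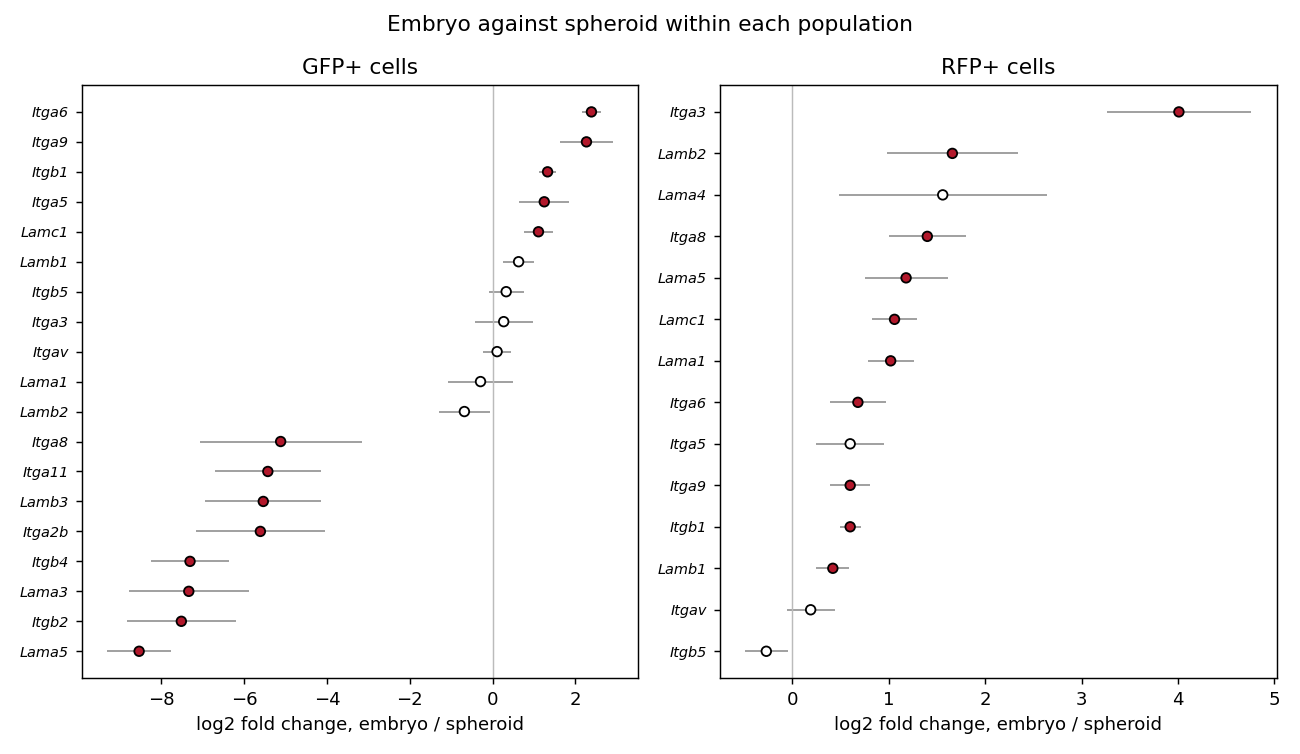
Log2 fold change of embryo over spheroid cells for 19 of the members tested in GFP+ cells (left) and 14 of those tested in RFP+ cells (right), with bars of 1 SE and filled points for members called at an adjusted p under 0.1. In RFP+ cells all 10 filled points were above 0, and in GFP+ cells 5 were above 0 and 8 below, 7 of which were at 0 in the embryo libraries.

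Genes that act beside integrins and laminins were examined as lists. Of 29 genes of integrin-proximal adhesion, the proteins that tie integrin tails to actin, 18 were tested in the embryo and 3 were called (16.7%, against 10.1% of all genes tested), all higher in GFP+ cells: Rsu1 (log2 difference -2.12, SE 0.41), Vcl (-1.80, SE 0.34) and Parva (-1.43, SE 0.45). Rsu1 and Parva bind the integrin-linked kinase complex and Vcl encodes vinculin. Vcl was at 230 to 625 CPM in GFP+ and 96.2 to 140 CPM in RFP+ libraries, without overlap. In the spheroids 18 of 21 tested were called (85.7%, against 77.0% of all genes), 5 with more in RFP+ and 13 with more in GFP+ cells, led by the talin gene Tln2 (1.66, SE 0.14) and by the epithelial kindlin gene Fermt1 (-2.76, SE 0.23).

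Of 22 other basement membrane and integrin ligand genes, 16 were tested in the embryo and 2 were called (12.5%, against 10.1% of all genes), both higher in GFP+ cells. Vcam1, a ligand of alpha 4 and alpha 9 integrins, was at 56.7 to 803 CPM in GFP+ and 0.709 to 5.91 CPM in RFP+ libraries (log2 difference -6.31, SE 0.79, adjusted p = 0.00147). The nidogen Nid2, which links laminin to collagen IV, was at 76.2 to 350 CPM and 30.7 to 57.4 CPM (-2.26, SE 0.56). In the spheroids Nid2 was called in the opposite direction, at 1.65 (SE 0.13). Of the list, 10 of 12 tested in the spheroids were called (83.3%, against 77.0% of all genes), 7 towards RFP+ and 3 towards GFP+ cells. The collagen IV genes Col4a1 and Col4a2 were higher in RFP+ cells, at log2 differences of 2.16 (SE 0.13) and 2.10 (SE 0.18), as was the fibronectin gene Fn1 at 1.84 (SE 0.09), with 277 to 761 CPM against 46.4 to 193 CPM and no overlap. Spp1, encoding osteopontin, was higher in GFP+ cells (-3.80, SE 0.40).

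Of 14 other laminin receptors and integrin partners, 14 were tested in the embryo and 2 were called (14.3%, against 10.1% of all genes), both higher in RFP+ cells. The syndecan Sdc4, a heparan sulfate co-receptor, was at 14.3 to 39.7 CPM in RFP+ libraries and had reads in 1 GFP+ library (log2 difference 6.85, SE 1.68). Rpsa, whose product is a ribosomal protein also described as a laminin receptor, was called at 2.35 (SE 0.31), but it has many near-identical pseudogenes and its count is uncertain. In the spheroids 9 of 13 tested were called (69.2%, against 77.0% of all genes), 4 towards RFP+ and 5 towards GFP+ cells. Sdc4 was higher in GFP+ cells there (-2.06, SE 0.09), the direction opposite to the embryo, as was the tetraspanin Cd9 (-2.65, SE 0.11), a membrane partner of integrins.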

How the data were processed

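RNA of 10 sorted cells per well was amplified for 19 cycles without molecular identifiers or strand marking. Per the labels, the authors used Trimmomatic 0.36 (quality at least 35, length at least 36), HISAT2 2.0.4 against mm10 (GRCm38) and featureCounts 1.5.2. The deposited values are raw counts per gene, with no normalization. The members and lists were chosen with earlier results of these data known. Library C9 (6288 counts, below 100000) was left out and 7 pairs of near-identical wells were summed. Counts were tested in R 4.3.3 with edgeR 4.0.16 (TMM, filterByExpr, quasi-likelihood F-test), separately in vivo and in vitro and between sources within each population, with Benjamini-Hochberg adjustment over all genes tested and a threshold of 0.1. Differences between sources were tested on the 2 log2 differences with 7 degrees of freedom. Members under the filter were compared by two-sided permutation tests of mean log2 CPM with a prior count of 2 (scipy 1.17.1), exact in vivo. RPKM used exon lengths of GENCODE M21, in which all 37 members were found, and promoters came from RefSeq. Intervals and floors cover counting error only. Named in full were members called in vivo, members whose change differed between sources and the 12 members of highest mean RPKM, and from each other list up to 3 called genes per direction. Alternatives were DESeq2 1.42.0, limma 3.58.1, other size factors, no filter and leaving out each embryo library. Shares of laminin alpha chains without each embryo GFP+ library, and the count of low members in the fit without a filter against all genes under the filter, were added after seeing the data. The fits were tested on simulated data. Values of 1 member are not reported here, and counts over the members include it.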

Additional observations from a re-analysis of the deposited data

Results flagged for a closer look

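In 25 groups of embryo libraries with any spread (the 13 members described in full, GFP+ and RFP+ libraries apart), 6 had a library whose gap to the next was wide for its group by Dixon's criterion. Chance meets that rule in about 1 of 20 groups of normally distributed values. These CPM, many of them 0, need not have that form, so 6 of 25 cannot be read against that rate. Of the 6 groups, 3 were flagged for GFP+ well C12: Itga3 at 60.3 CPM with the other GFP+ libraries at 0, Itga5 at 79.6 CPM with the next at 17.9 CPM, and Lama1 at 18.1 CPM with the next at 5.11 CPM. Itgb3 stood at 258 CPM in GFP+ well E12 with the next at 1.28 CPM. Itga8 had its 1 GFP+ read in well D12, at 0.462 CPM. In the RFP+ group Lama1 stood at 114 CPM in well H11 with the next at 55.3 CPM. The change of Lama5 between RFP+ and GFP+ cells differed between embryo and spheroid by 9.27 on the log2 scale, and that of Itga6 by -1.85. The size for Lama5 depends on how the fit treats the embryo GFP+ group at 0. No cause was tested for any of these.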

How the results depend on the processing

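Itga6, Itga8 and Lama5 kept their direction and their call in the embryo under all 15 alternatives, and so did 11 of the 12 members called in the spheroids under all 9 tried there. In the embryo, limma with a variance for each group called 5 members. In the spheroids, 26 members were called with no filter on low counts and 25 by DESeq2. Between embryo and spheroid GFP+ cells the counts were 24 with no filter, 20 by DESeq2 and 2 by limma, and for RFP+ cells limma called 6. Members whose change differed between the sources numbered 0 with no filter, 1 at an adjusted p under 0.05 and 12 with an interaction term in a single fit. Leaving out 1 embryo library at a time gave 3 to 5 members called in the embryo, 11 to 15 and 8 to 12 between embryo and spheroid in GFP+ and RFP+ cells, and 1 to 3 that differed between the sources. Members that were not called in the embryo and changed sign there were Lamc1 (0.09 with no filter, 0.43 by limma, -0.39 to 0.76 over left-out libraries), Lamb1 (0.09, 1.43, -0.36 to 0.63), Itgb5 (0.12, 1.02, -0.34 to 0.49), Itga9 (3.85 by limma, -0.47 to 1.35) and Itga5 (1.77 by limma, -0.64 to 1.14). In GFP+ cells between the sources, Itga9 (-1.72) and Itga5 (-1.08) changed sign by limma, and Itga5 ran from -0.10 to 1.68 over left-out libraries. The gaps between sources of Itga5 (-1.21 to 0.56), Itgav (-0.33 to 0.49), Lamb1 (-0.71 to 0.28) and Lamc1 (-0.60 to 0.55) crossed 0 over left-out libraries. The cause was not tested. A prior count of 0.5 left the number of permutation tests with a p under 0.05 within 1.5 times of 13. No paired analysis was possible because the populations share no replicate numbers. With 4 and 5 embryo libraries of 10 cells, a member at 0 may be present below 3 counts per library, and reads without molecular identifiers limit every interval to counting error.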
